A study of Rattus norvegicus with 4 samples.

Results

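The ventral prostate of the rat is a secretory gland, and its endoplasmic reticulum chaperones were followed through 10 genes: Hspa5, Hsp90b1, Calr, Canx, Pdia3, Pdia4, Pdia6, Xbp1, Creld2 and Manf. The genes were chosen by name for their role in folding and quality control of secreted proteins, and every probe set that the platform annotation maps to exactly 1 symbol, that symbol being one of the 10, was taken. This gave 13 of 31042 probe sets, and 10 of 14217 genes named by a single symbol on the rat Affymetrix array used. The animals were male rats of the inbred F344 strain, 6 weeks old. One group was given 300 mg/kg of PhIP, a mutagenic heterocyclic amine from cooked meat, the other group was not, and both were killed after 2 days. There were 4 rats in each group. Each array held a mix from 2 rats, so that a group had 2 arrays, named control 1, control 2, PhIP 1 and PhIP 2. The labels name no allele or transgene, do not state the route or vehicle of PhIP, and do not say whether control rats received a vehicle. Each spread given here is between pools, so it leaves out part of the spread between animals.

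The endoplasmic reticulum (ER) is where secreted and membrane proteins are folded, glycosylated and joined by disulfide bonds. The luminal cells of the ventral prostate export large amounts of secretory protein and carry a well-developed ER. Hspa5 encodes BiP, the HSP70 chaperone of the ER lumen, and Hsp90b1 the HSP90 of the same compartment. Calreticulin (Calr) and calnexin (Canx) hold glycoproteins by their sugars until they are folded, and the protein disulfide isomerases Pdia3, Pdia4 and Pdia6 form and rearrange disulfide bonds. Xbp1 encodes a transcription factor that is activated by splicing of its mRNA when unfolded proteins gather in the ER. Creld2 and Manf encode ER proteins induced in that response, which is known as the unfolded protein response. The array measures mRNA abundance and does not tell spliced from unspliced Xbp1 mRNA here.

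Sequences are shown because most of the genes with a promoter sequence share a promoter element. The element is the ER stress response element (ERSE), which reads CCAAT, 9 bases of any kind and CCACG, through which the ATF6 and XBP1 factors act together with the CCAAT-binding factor NF-Y. RefSeq promoter sequences of assembly GRCr8, from 250 bases before to 50 bases after the annotated start, were found for 7 of the 10 genes. Pdia3, Pdia6 and Manf are named only. The element was searched on both strands with no mismatch. It was present upstream of 6 of the 7 genes, at 7 places, and in 22 of 33469 rat promoters of the same length (0.0657%). The element and the genes are both known from the ER stress response, so this count is a description and not an independent test. In the stretches below, read 5′ to 3′ on the gene's strand, capitals mark the fixed letters of the element. A match that reads CGTGG then ATTGG is the element on the opposite strand.
Hspa5, chr3:38452958-38453006, plus strand: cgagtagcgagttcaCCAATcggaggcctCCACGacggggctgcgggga
Hsp90b1, chr7:23012436-23012484, minus strand: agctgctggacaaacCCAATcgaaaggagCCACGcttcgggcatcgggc
Hsp90b1, chr7:23012332-23012380, minus strand: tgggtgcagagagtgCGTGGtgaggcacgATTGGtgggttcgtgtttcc
Calr, chr19:40213120-40213168, plus strand: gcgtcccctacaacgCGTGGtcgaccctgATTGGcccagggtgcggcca
Canx, chr10:35158054-35158102, minus strand: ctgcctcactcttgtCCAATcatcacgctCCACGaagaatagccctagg
Xbp1, chr14:84604543-84604591, plus strand: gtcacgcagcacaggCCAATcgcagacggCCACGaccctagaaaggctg
Creld2, chr7:121789224-121789272, plus strand: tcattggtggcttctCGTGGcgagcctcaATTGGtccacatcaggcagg

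The matches lay at different distances from the start. The one in Hspa5 began 43 bases before it, the one in Xbp1 65 bases and the one in Creld2 145 bases, while those in Calr and Canx began 232 and 230 bases before it. Hsp90b1 had a match on each strand, beginning 176 and 72 bases upstream. The 9 spacer bases held 5 to 7 G or C in all 7 matches. The promoter of Pdia4 held no exact match and came within 1 mismatch, a looser search that was chosen after the exact result was seen and that 471 of 33469 promoters pass (1.41%). Of 3 other elements searched on both strands, ERSE-II (ATTGG, any base and CCACG, in 0.0508% of promoters), UPRE (TGACGTGG, 0.595%) and the cyclic AMP element CRE (TGACGTCA, 1.83%), none was found in the 7 promoters. A match is a description of the letters and not a measured binding site.

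**Figure D1:**
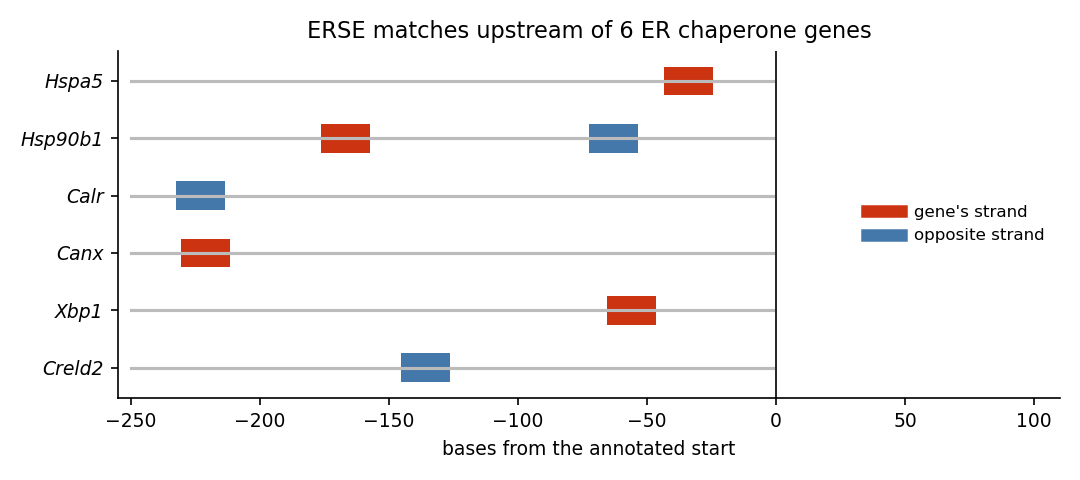
Position of each exact ERSE match (19 bases, filled boxes) in the 250 bases before the annotated start of 6 ER chaperone genes, by strand. Hsp90b1 holds 2 matches, and the matches of Calr and Canx lie farthest from the start.

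The deposited values are MAS5 signals, intensities on a linear scale. The authors had scaled each array to the same trimmed mean, and the median signal of all probe sets was 25.5 and 27.4 in control against 23.2 and 23.1 in PhIP. The ratio between 3′ and 5′ probe sets, which goes up as RNA degrades, was highest on control 2, both for actin (5.71, other arrays 3.49 to 4.18) and for Gapdh (2.06, other arrays 1.34 to 1.45). Transcripts added in fixed amounts at hybridization were lower in PhIP in 18 of 18 probe sets, by 0.23 on average on the log2 scale, and values scaled to them are given below. Differences were tested with limma on log2(signal + 10) over 18625 probe sets, and all 13 probe sets of the 10 genes passed the filter on low signal. A log2 difference is PhIP minus control with its standard error, and adjusted p is limma's, after Benjamini-Hochberg adjustment over all 18625. In a whole gland, fewer cells of a type and less RNA per cell cannot be told apart.

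No ER chaperone gene passed the test. By its brightest probe set, each of the 10 genes had a difference between −0.16 and 0.25 on the log2 scale. The 95% intervals, taken gene by gene, all lay between 0.762-fold and 1.35-fold. The median of the 10 differences was 0.065, against −0.026 over the 10507 genes tested. The 10 genes are bright, and with the filter on low signal raised to the 60th percentile the median of all genes was 0.0023. Of the 10, 7 were above 0, against 46% of all genes. An adjusted p under 0.05 was reached by 0 of 10, against 0.00952% of all genes and 0.0268% of all probe sets. An unadjusted p under 0.05 was reached by 2 of 10 on the higher side (Hsp90b1 and Pdia3), against 6.12% of all genes, and by 0 on the lower side, against 8.45%. The groups did not overlap, with PhIP higher, in 4 of 10 (Hsp90b1, Calr, Pdia3 and Pdia4), against 21.6% of all genes, and in 0 with PhIP lower, against 26.9%. These counts moved with the scaling of the arrays. After quantile normalization 5 of 10 were above 0, with 3 apart on the higher side and 3 on the lower. After cyclic loess 6 were above 0, with 3 and 2 apart. Under median centring, and under scaling to the hybridization transcripts, 9 were apart on the higher side and 7 had an unadjusted p under 0.05. On either side, 17% and 22.2% of all probe sets then had such a p, and the median of all genes was 0.11 and 0.19. The share of all genes with groups apart was not taken under these other scalings. The counts apart under them are therefore no result about the 10 genes. Without PhIP 1 or without PhIP 2 no gene had an unadjusted p under 0.05 on the higher side, and without PhIP 1 Creld2 had one on the lower side.

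**Figure D2:**
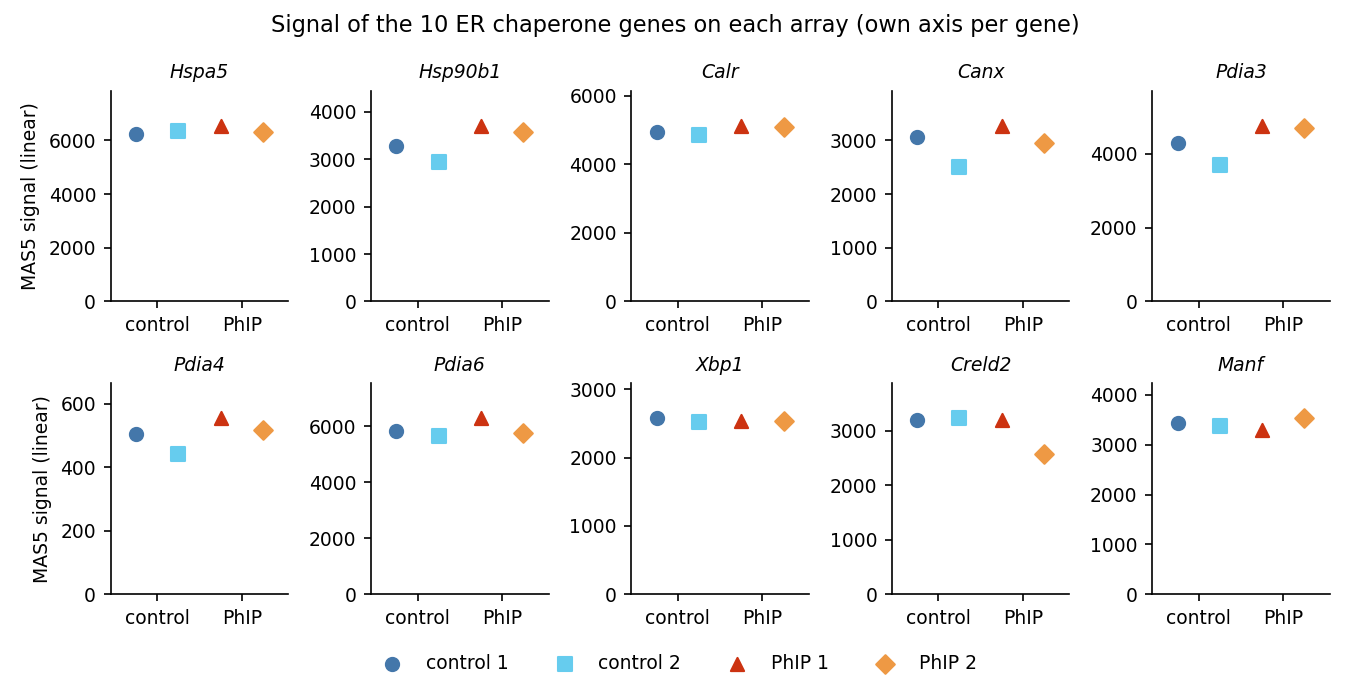
MAS5 signal (linear scale, from 0) of each of the 10 genes on each of the 4 arrays, by brightest probe set, with an axis of its own for each gene because probe sets differ in affinity. Both PhIP points lie above both control points for Hsp90b1, Calr, Pdia3 and Pdia4.

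The HSP70 and HSP90 chaperones of the lumen differed from each other in how the pools lay. Hspa5 had a signal of 6239.1 on control 1, 6337.8 on control 2, 6549.4 on PhIP 1 and 6306.0 on PhIP 2. PhIP 2 fell between the controls, so the groups overlapped. The group means were 6288 ± 69.8 (SD, n = 2) in control and 6428 ± 172 in PhIP, a log2 difference of 0.031 ± 0.055 (adjusted p = 0.824). Its 95% interval ran from 0.936-fold to 1.12-fold. Hsp90b1 had signals of 3274.6 and 2942.5 in control against 3711.1 and 3567.4 in PhIP. Both PhIP arrays lay above both controls, with control 2 the lowest. The means were 3109 ± 235 and 3639 ± 102 (n = 2 each), a log2 difference of 0.23 ± 0.074 (adjusted p = 0.279).

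Neither lectin chaperone passed the test, and calnexin had more spread between pools than calreticulin. Calr had signals of 4932.1 and 4867.1 in control against 5125.9 and 5100.1 in PhIP. The groups did not overlap, and the difference was small, 0.061 ± 0.056 (adjusted p = 0.661), with an interval from 0.954-fold to 1.14-fold. The brightest Canx probe set, 1388442_at, had signals of 3062.8 and 2497.7 in control against 3273.7 and 2944.4 in PhIP. Control 1 lay above PhIP 2, so the groups overlapped, and the difference was 0.17 ± 0.11 (adjusted p = 0.536).

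Calnexin was the member read by the most probe sets, and they differed in size though not in sign. The probe set 1371686_at had signals of 2271.7 and 2372.4 in control against 2992.8 and 2635.5 in PhIP, a difference of 0.27 ± 0.082 (adjusted p = 0.246) with no overlap. The dimmer 1371687_at had signals of 526.1 on control 1, 253.9 on control 2, 573.5 on PhIP 1 and 545.4 on PhIP 2. Control 2 stood alone there, and the difference of 0.60 ± 0.28 (adjusted p = 0.417) was 0.087 without control 2 and 1.11 without control 1. Control 2 was also the array with the highest 3′ to 5′ ratios given above, and the part of RNA integrity in this probe set was not tested.

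**Figure D3:**
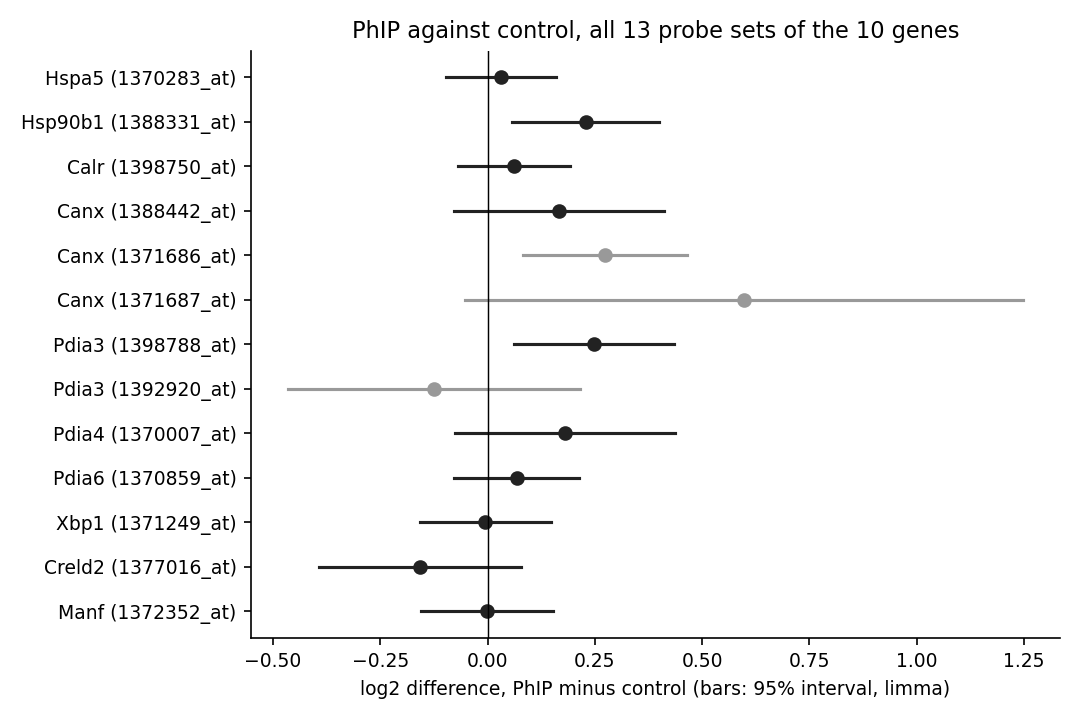
Log2 difference of PhIP minus control with its 95% interval from limma for all 13 probe sets of the 10 genes, black for the brightest of a gene and grey for others. The intervals of Hsp90b1, Pdia3 (1398788_at) and Canx (1371686_at) lie above 0 before adjustment, and the widest belongs to Canx 1371687_at.

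Of the protein disulfide isomerases, Pdia3, the partner of calnexin and calreticulin, had the largest difference of the 10 genes by brightest probe set. Its signals were 4298.6 and 3689.2 in control against 4762.1 and 4698.8 in PhIP, with no overlap and control 2 the lowest. The means were 3994 ± 431 and 4730 ± 44.8 (n = 2 each), a log2 difference of 0.25 ± 0.081 (adjusted p = 0.280). Its other probe set, 1392920_at, was dim, at 146.4 and 174.2 in control against 151.8 and 139.8 in PhIP. There the groups overlapped and the sign was opposite, at −0.12 ± 0.15 (adjusted p = 0.739). Pdia4, an isomerase found in complexes with BiP, had a signal of 503.0 on control 1 and 441.6 on control 2, and of 553.2 on PhIP 1 and 517.6 on PhIP 2, a difference of 0.18 ± 0.11 (adjusted p = 0.524) with no overlap, which was 0.088 without control 2 and 0.27 without control 1. Pdia6, which also restrains the stress sensor IRE1, had 5821.3 and 5652.4 in control against 6274.7 and 5759.5 in PhIP. PhIP 2 lay between the controls, and the difference was 0.068 ± 0.063 (adjusted p = 0.669).

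With the signals as deposited, Xbp1, Manf and Creld2 were the 3 of the 10 genes with a difference below 0. Scaling to the hybridization transcripts put all 3 above 0, at 0.23, 0.23 and 0.076 for Xbp1, Manf and Creld2. Median centring put Xbp1 and Manf above 0 as well, both at 0.13. Xbp1 had signals of 2572.5 and 2522.0 in control against 2540.8 and 2534.9 in PhIP, both PhIP arrays lying between the controls. Its difference was −0.0052 ± 0.066 (adjusted p = 0.979), with an interval from 0.896-fold to 1.11-fold. Manf had 3436.1 and 3379.8 in control against 3287.2 and 3525.6 in PhIP, with the controls between the PhIP arrays (−0.0015 ± 0.066, adjusted p = 0.995). Creld2 had 3189.1 and 3223.6 in control, 3203.7 on PhIP 1 and 2578.5 on PhIP 2. Here PhIP 2 alone was low, and the difference of −0.16 ± 0.10 (adjusted p = 0.543) was −0.31 without PhIP 1 and −0.0012 without PhIP 2.

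These differences had smaller standard errors in this fit than those of most genes. The brightest probe sets of the 10 genes lay above the signals of at least 92.8% of probe sets on every array, and their median standard error was 0.070, against 0.16 over all genes tested. With the signals as deposited, a rise of the size seen for Hsp90b1 lay within the intervals of Canx and Pdia4. It lay above the upper limits of Hspa5, Calr, Pdia6, Xbp1, Creld2 and Manf. These intervals leave out the choice of scaling and of variance model. Each standard error draws in part on probe sets of like signal. With no such trend in the fit, 0 of the 10 had an unadjusted limma p under 0.05. The lowest adjusted p was then 0.54. Scaled to the hybridization transcripts, Hspa5, Calr, Pdia6 and Manf stood at 0.26, 0.29, 0.30 and 0.23, and Hsp90b1 at 0.46. A p above the threshold does not show that levels were equal. Leaving out control 1, which leaves control 2 as the lone control and assumes that it varies as the PhIP arrays do, brought Pdia3 (0.36, adjusted p = 0.00272), Hsp90b1 (0.31, adjusted p = 0.00920) and Canx (0.31, adjusted p = 0.0176) past the threshold, together with 2361 of all probe sets. Without control 2 the same genes stood at 0.14, 0.15 and 0.020, and none of the 10 passed.

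The sign of several members depended on how the arrays were scaled. Scaling to the hybridization transcripts moved the median of all genes from −0.026 to 0.19 and that of the 10 genes from 0.065 to 0.30. All 10 were then above 0, from 0.076 for Creld2 to 0.48 for Pdia3, with a lowest adjusted p of 0.0995. Median centring moved the median of all genes to 0.11 and that of the 10 to 0.20. Quantile normalization and cyclic loess put the 10 at 0.0095 and 0.0097. In each case the median of the 10 genes was above that of all genes, by 0.022 to 0.11. Hsp90b1, Canx, Pdia3 and Pdia4 were higher in PhIP under all 5 scalings, Calr too, Creld2 was lower under 4 of them, and Hspa5, Pdia6, Xbp1 and Manf changed sign.

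**Figure D4:**
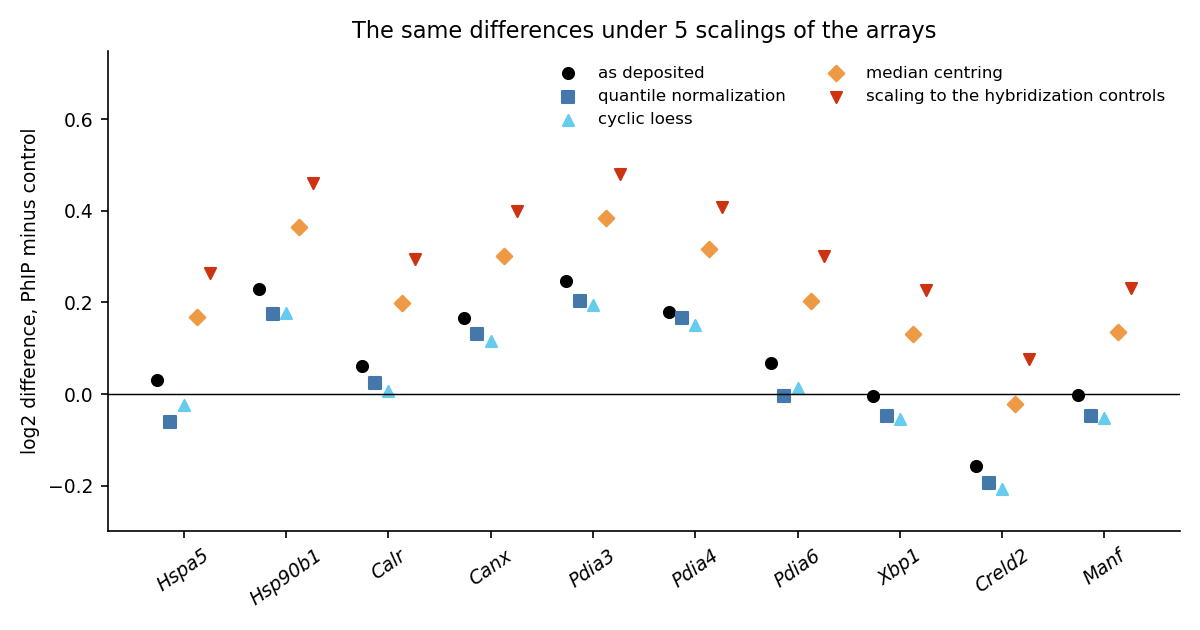
Log2 difference of PhIP minus control of the 10 genes (brightest probe set) with the signals as deposited and under 4 other scalings. Scaling to the hybridization controls lifts all 10 above 0, and Hspa5, Pdia6, Xbp1, Creld2 and Manf lie on both sides of 0.

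The rest of the ER folding system was read through 7 lists with 110 genes on the array, of which 106 were tested. None of the 106 passed the adjusted test. At an unadjusted p under 0.05, 3 were higher in PhIP and 12 lower, against 6.12% and 8.45% of all genes. The count of each list below is to be read beside the same shares. The groups were apart in 23 with PhIP higher and in 33 with PhIP lower, against 21.6% and 26.9%. The median over the 106 was −0.0093. Of the 28 genes of these lists that the naming rule takes, 8 had other tested probe sets, which had the same sign in 6 and not in Ssr3 and Ube2g2. These 28 were taken as the largest of their lists in these same data, so fits with an array left out are no separate support for them. Leaving out control 2 moved the difference of 10 of the 28 by over 1.5 times, leaving out control 1 that of 4, PhIP 1 that of 1 and PhIP 2 that of 3.

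Of 17 co-chaperones and related ER chaperones, 0 were higher and 3 lower at that unadjusted p, with a median of 0.0091. Dnajb9, a J-domain partner of BiP and a known target of XBP1, read 1953.9 and 2932.7 in control against 1519.9 and 1483.7 in PhIP. Both PhIP arrays lay below both controls, which differed widely, and the difference was −0.67 ± 0.16 (adjusted p = 0.178). It was −0.38 without control 2 and −0.96 without control 1. The calcium-binding ER proteins Calu, at 706.8 and 621.9 in control against 451.4 and 424.4 in PhIP (−0.59 ± 0.11, adjusted p = 0.0977), and Rcn1 (−0.69 ± 0.17) were lower with no overlap. Mesd, the chaperone of LDL receptor relatives, stood at 0.22 ± 0.10 (adjusted p = 0.420). Dnajc3, another BiP co-chaperone, whose promoter holds an exact ERSE, stood at 0.10 ± 0.077.

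Of 16 genes of oxidative folding, 0 were higher and 2 lower, with a median of 0.030. Ero1a, the oxidase that feeds disulfide bonds to the isomerases, had 223.1 and 231.8 in control against 175.5 and 189.0 in PhIP (−0.31 ± 0.12, adjusted p = 0.366). The thioredoxin-related gene Tmx4 stood at −0.37 ± 0.15, and Qsox1, a sulfhydryl oxidase, at −0.38 ± 0.21 (−0.061 ± 0.22 in another probe set). The Qsox1 difference was −0.10 without control 2 and −0.66 without control 1. Pdia5 stood at 0.14 ± 0.088 with no overlap. P4hb, the founding disulfide isomerase, which is outside the naming rule, had 5763.3 and 6262.6 in control against 6201.3 and 6219.2 in PhIP (0.048 ± 0.061, adjusted p = 0.761).

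Of 7 ER prolyl isomerases, 0 were higher and 3 lower, with a median of −0.063. The members on the lower side were Fkbp10 and Fkbp14, which act on collagens, and Fkbp9. Fkbp9 had 224.9 and 176.3 in control against 126.5 and 141.6 in PhIP (−0.54 ± 0.16, adjusted p = 0.241), and Fkbp14 and Fkbp10 stood at −0.67 ± 0.20 and −0.68 ± 0.24. Fkbp11 stood at 0.048 ± 0.078. Markers of other cell types moved with these genes. Of 12 fibroblast genes, 0 were higher and 9 lower at an unadjusted p under 0.05, with a median of −0.55, and their summed signal was 11460 to 14310 in control and 8633 to 8700 in PhIP. Col1a2, a chain of type I collagen, stood at −0.88 ± 0.12 (adjusted p = 0.0534) and Sparc at −0.53 ± 0.085 (adjusted p = 0.0738). Of 12 smooth muscle genes, 0 were higher and 10 lower, with a median of −0.70 and a summed signal of 8843 to 9007 in control and 5790 to 5842 in PhIP. Their part in the lower values of the prolyl isomerases, Calu and Rcn1 was not tested.

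Of 9 tested genes of N-glycan quality control, 0 were higher and 2 lower, with a median of −0.0026. The 2 lower genes were Man1b1 and Edem1, which act in marking misfolded glycoproteins for removal. Man1b1 had 1081.2 and 1056.9 in control against 883.5 and 836.8 in PhIP (−0.31 ± 0.085, adjusted p = 0.216), and −0.17 ± 0.15 in another probe set. Edem1 had 1277.9 and 1218.1 in control against 947.8 and 1100.1 in PhIP (−0.29 ± 0.098, adjusted p = 0.298). Other Edem1 probe sets stood at −0.43 ± 0.15 and −0.071 ± 0.11. Ganab, a glucosidase of the calnexin cycle, stood at 0.17 ± 0.10, and Edem2, a relative of Edem1, at −0.12 ± 0.083, which did not reach that p.

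Of 16 genes of ER-associated degradation, which sends misfolded proteins to the proteasome, 0 were higher and 1 lower, with a median of −0.027. Syvn1, its ubiquitin ligase, had 1347.5 and 1468.1 in control against 1167.1 and 1079.8 in PhIP, with no overlap (−0.32 ± 0.088, adjusted p = 0.216). Herpud1, a stress-induced partner of Syvn1 whose promoter holds an ERSE-II, had 1217.4 and 1590.7 in control against 1181.4 and 1180.2 in PhIP (−0.24 ± 0.12, adjusted p = 0.472). It was −0.43 without control 1 (adjusted p = 0.00328) and −0.044 without control 2 (adjusted p = 0.838), so the lower value rested on control 2. Selenos stood at 0.19 ± 0.082 (adjusted p = 0.391) and Ube2g2 at −0.21 ± 0.13 (0.16 ± 0.24 in another probe set).

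Of 17 sensors and regulators of the unfolded protein response, 1 was higher and 1 lower, with a median of −0.068. Creb3l4, an ER-anchored factor of the prostate epithelium, had 225.7 and 186.9 in control against 267.0 and 289.9 in PhIP (0.42 ± 0.14, adjusted p = 0.282). Its relative Creb3l1, which drives collagen secretion in matrix-producing cells, had 82.0 and 100.1 in control against 69.9 and 50.9 in PhIP (−0.53 ± 0.20, adjusted p = 0.336). Creb3 stood at −0.26 ± 0.12 and Ppp1r15b, a subunit of the phosphatase that restores translation, at 0.15 ± 0.095. The stress-induced genes Ddit3 (−0.18 ± 0.17), Atf4 (0.014 ± 0.077) and Trib3 (−0.24 ± 0.19) and the sensor genes Atf6 (−0.068 ± 0.12) and Eif2ak3 (−0.095 ± 0.11), named for their role outside the naming rule, had overlapping groups. Also outside that rule, Atf6b (0.19 ± 0.13) was higher with no overlap, and Ppp1r15a (−0.21 ± 0.16) and Mbtps2 (−0.17 ± 0.15) were lower with no overlap. Over the 17, the groups were apart in 3 with PhIP higher and in 4 with PhIP lower, against 21.6% and 26.9% of all genes.

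Of 24 genes of the translocon, signal peptidase and oligosaccharyltransferase, which import nascent chains and attach their glycans, 2 were higher and 0 lower, with a median of 0.012. They ranged from −0.15 to 0.20, against −0.16 to 0.25 for the 10 chaperone genes. Spcs1, of the signal peptidase, had 4092.2 and 3750.8 in control against 4635.5 and 4388.1 in PhIP (0.20 ± 0.069, adjusted p = 0.298). Ssr3, of the translocon-associated complex, stood at 0.17 ± 0.074 by its brightest probe set, and at 0.26 ± 0.21 and −0.26 ± 0.12 in others. Dad1 and Ddost, both of the oligosaccharyltransferase, stood at −0.15 ± 0.070 and 0.15 ± 0.075.

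**Figure D5:**
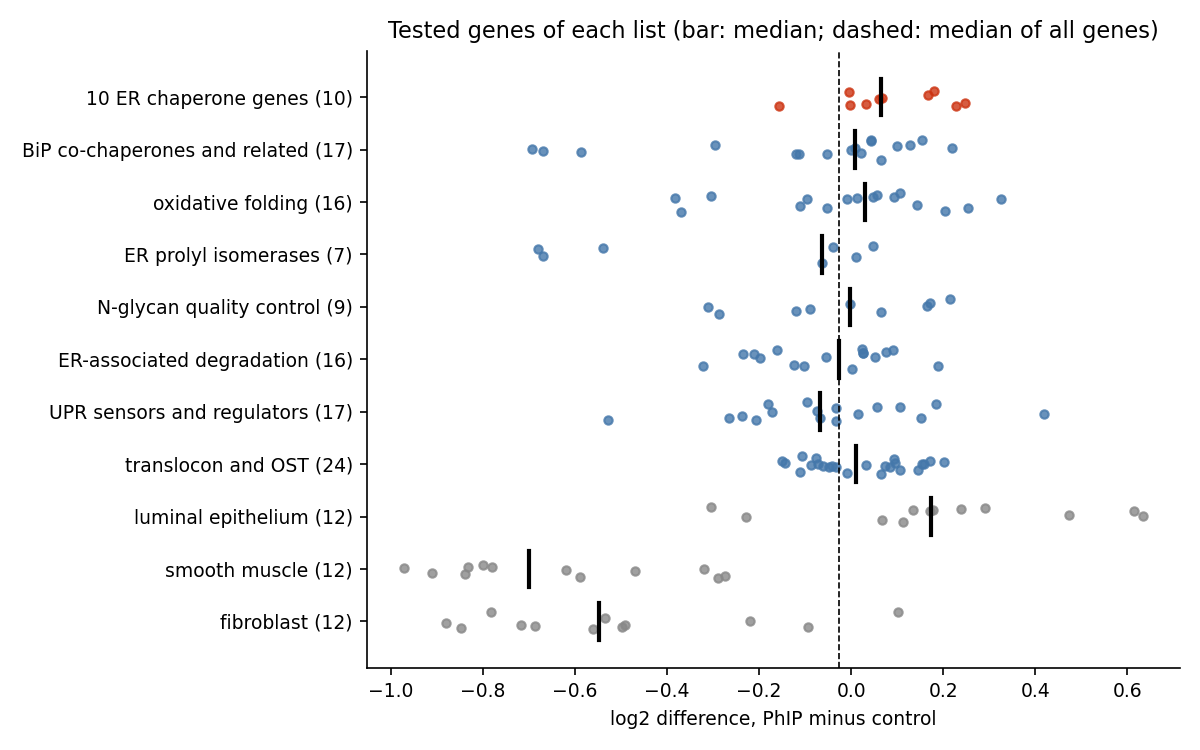
Log2 difference of PhIP minus control of every tested gene in the 10 ER chaperone genes (red), 7 lists of the ER folding system (blue) and 3 cell type lists (grey), with the number tested in brackets, the list median as a bar and the median of all genes as a dashed line. The ER lists centre between −0.068 and 0.065, with single genes down to −0.69, while the stromal lists centre at −0.70 and −0.55.

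The cells that could carry this machinery were checked by their markers. Of 12 luminal epithelial genes, 6 were higher and 1 lower at an unadjusted p under 0.05, with a median of 0.17. Over all genes the shares were 6.12% and 8.45%, which also stand beside the counts of the other lists here. The summed signal of the luminal genes was 11320 to 11460 in control and 12860 to 12920 in PhIP. The keratin gene Krt19 stood at 0.63 ± 0.12 (adjusted p = 0.110) and the E-cadherin gene Cdh1 at 0.29 ± 0.070 (adjusted p = 0.169). The lower gene, Cldn4, which is outside the naming rule, stood at −0.30 ± 0.098. Of 5 tested genes for secretory proteins of the lobe, 2 were higher and 0 lower, with a median of 0.049. Sbp, the spermine-binding protein, stood at 0.25 ± 0.067 and Andpro at 0.17 ± 0.052 by its brightest probe set. Other Andpro probe sets stood at −0.18 ± 0.071 and −0.16 ± 0.076, both with PhIP lower and no overlap, and at 0.012 ± 0.051, so Andpro had no settled direction. Outside the naming rule, the bright Pbsn had 4898.1 and 4398.8 in control against 4273 and 4643.4 in PhIP, with overlap (−0.059 ± 0.076). Azgp1 (−0.23 ± 0.33) and Acp3 (0.049 ± 0.26) were dim, and their groups overlapped. The part of a different share of epithelium in the values of Hsp90b1 and Pdia3 was not tested. Plasma cells also hold abundant ER chaperones, and their markers were near the floor. Of 7 plasma cell and B cell genes on the array, only Prdm1 passed the filter on low signal (−0.59 ± 0.30, adjusted p = 0.447), and Jchain was at 6.3 and 17.5 in control against 24.4 and 4.1 in PhIP. The summed signal of the 7 was 66.7 to 74.8 in control and 28.1 to 82.1 in PhIP. Signals this near the floor do not show whether such cells were present or absent. Of 6 tested skeletal muscle genes, 0 were higher and 3 lower, with Acta1 at −1.03 ± 0.14 and Tnnc2 at −1.15 ± 0.18. The list had a summed signal of 922 on control 1, 1698 on control 2, 515 on PhIP 1 and 433 on PhIP 2. Outside the naming rule, Myl1 had 5.2 on control 1 and 305.6 on control 2, against 4.5 and 9.1 in PhIP. Myh4 (0.5 and 164.6 against 6.6 and 3.8) and Ckm (22.6 and 93.9 against 16.1 and 20.8) also stood out on control 2 alone. Of 5 tested adipocyte genes, 0 were higher and 3 lower, and the list summed to 430 and 315 in control against 156 and 245 in PhIP, with Fabp4 at −0.83 ± 0.21 and Lpl at −1.10 ± 0.28. Of 8 macrophage genes, 2 were higher (Cd14 at 0.50 ± 0.092 and Lyz2 at 0.29 ± 0.059) and 0 lower, with a median of −0.043. Of the 8, 3 were above 0 and 5 below. Outside the naming rule, the dim Cd68 stood at −0.44 ± 0.22, with PhIP lower and no overlap. Csf1r, Cd163, Adgre1 and Aif1 were below 0 with overlapping groups, so the list had no common direction. None of the 15 genes of cell type lists taken by the naming rule passed the adjusted test. They were taken as the largest of their lists in these same data.

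Other genes with an exact ERSE in the promoter were few on this array. Besides the 6 chaperone genes, 15 named genes hold one, 11 of them are on the array and 8 were tested. Of these 8, 0 passed the adjusted test, and 1 was higher and 1 lower at an unadjusted p under 0.05, against 6.12% and 8.45% of all genes. The median was 0.10, against −0.026 for all genes. The 2 genes were Zfand2a (0.38 ± 0.16, adjusted p = 0.370), which encodes a proteasome-binding zinc finger protein, and Ppm1l (−0.76 ± 0.19, adjusted p = 0.174), a phosphatase gene. Ero1b, the second ER oxidase, had 999.6 and 943.7 in control against 1010.8 and 1082.2 in PhIP (0.11 ± 0.088). For the 10 tested genes with ERSE-II, among them Herpud1, Hyou1 and Dnajb11, the median was −0.080.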

How the data were processed

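Ventral prostate RNA of 4 control and 4 PhIP-treated rats was measured on 4 arrays, 2 per group, each a mix of 2 rats. The deposited values are intensities, MAS5 signals on a linear scale, per the submitters' processing notes. Which MAS5 version, scaling target and detection calls applied is not given in the sources used here. The 57 manufacturer's control probe sets were left out, leaving 31042, of which 20826 carried 1 symbol. Signals were analysed as log2(signal + 10), the constant being 10% of the trimmed mean, so that fold changes of dim genes are understated. Probe sets above the 40th percentile of mean log2 signal numbered 18625, and the other 12417 went untested. Differences were tested with limma's moderated statistic (limma 3.58.1, R 4.3.3, intensity trend, two-sided), with 2 residual and 5.67 prior degrees of freedom, and intervals were 95%. The fit was tested on simulated data. A gene was read by its brightest probe set. The genes and lists were chosen with earlier results of these data known. Named were all 10 genes, up to 4 genes of each ER list and up to 2 of each cell type list by largest moderated statistic, and others are marked. Plots were made with Python 3.11.15 and matplotlib 3.10.9. Alternatives were other constants (2% and 20% of the trimmed mean), filters, scalings and variance models, a replicate block, each array left out, and probe sets averaged by gene. The number of arrays limits the precision. The labels do not say how rats were paired into pools, and p-values measure the spread between pools.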

Additional observations from a re-analysis of the deposited data

How the results depend on the processing

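The number of the 10 genes past the adjusted threshold was 0 under every alternative except without control 1, so leaving out each array gave 0 to 3. The number of all probe sets past it was 5, and 5 with the constant at 2% of the trimmed mean, 22 with it at 20%, 0 with no filter, 44 with the filter at the 60th percentile, 0 after quantile normalization and 0 after median centring, 3 after cyclic loess, 164 after scaling to the hybridization controls, 0 with eBayes without trend, 52 with robust eBayes and 0 to 2361 with an array left out. The median of the 10 genes, 0.065, was 0.0095 after quantile normalization, 0.20 after median centring, 0.0097 after cyclic loess, 0.30 with spike scaling (to the hybridization controls) and 0.045 to 0.097 with an array left out. With the replicate number as a block, 35 probe sets passed, with 0 of the 10 genes, 0 of the 28 named genes of the ER lists and 4 of the 15 of the cell type lists. Of those 15, 3 passed with spike scaling, 2 with the constant at 20%, 4 with the filter at the 60th percentile and 5 with robust eBayes. In the fits without control 1 or without control 2, more of the 15 and some of the 28 passed. Those fits rest on a lone control, so their counts are left out here. The labels tie no rats to the replicate numbers, and deviations of same-numbered arrays correlated at −0.06.

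Signs turned for Hspa5 (−0.061 after quantile normalization, −0.025 after cyclic loess), Pdia6 (−0.0047 after quantile normalization), Xbp1 and Manf (0.13 and 0.13 after median centring, 0.23 and 0.23 with spike scaling), Creld2 (0.076 with spike scaling) and the dim Pdia3 probe set (0.012 after median centring, 0.095 with spike scaling). With an array left out, Xbp1 ranged from −0.020 to 0.0090 and Manf from −0.052 to 0.049. Edem2 turned to 0.016 after median centring and, with spike scaling, to 0.11, where Ube2g2 stood at 0.016 and Dad1 at 0.082. The cause was not tested.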
